A study of Mus musculus with 35 samples.

Results

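Suprarenal aortas that had dissected by day 7 of angiotensin II infusion were compared with suprarenal aortas that had received the same infusion for the same 7 days and had not dissected. Members were chosen by the sample titles, which gave 3 arrays titled as dissected aneurysms and 4 titled as Ang II aortas, whose source label calls them non-dissected aneurysms. These are 7 of the 35 arrays of the series, and all genes on them were used. Both groups were male ApoE-/- mice, which lack apolipoprotein E in every cell. A subcutaneous osmotic pump, implanted at 12 to 14 weeks of age, delivered angiotensin II (Ang II) at 1000 ng/kg/min. A further group of 6 male ApoE-/- mice with a saline pump for 7 days is used to place the values. Each array held the whole suprarenal aorta of 1 mouse, taken after perfusion with saline, so any clot, adventitia or surrounding tissue left on the vessel was part of the RNA. The labels give neither the size, the age nor the extent of a dissection. Values are log2 ratios of aortic RNA (Cy5) to a universal mouse reference RNA (Cy3), so only differences between aortas are read. In whole tissue, a larger share of cells of a type and more RNA per cell cannot be told apart.

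The wall of the suprarenal aorta is built of smooth muscle layers between elastic lamellae, wrapped in a collagen-rich adventitia of fibroblasts. Ang II infusion in ApoE-/- mice is a standard model of abdominal aortic aneurysm, in which the media tears early, blood enters the wall, a clot forms within the adventitia, and leukocytes and fibroblasts then remodel it. Some infused mice dissect and others do not, and the design sets these outcomes against each other at 1 time point.

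The labelled tissue was checked against smooth muscle markers. Of 22 contractile smooth muscle genes, 17 were well above background on all 3 dissected arrays and 21 on all 4 non-dissected arrays, and Myh11 and Cnn1, defining markers of that cell, were so on all 7. Kcnmb1 and Npnt, named after their values were seen, were so on all 4 non-dissected arrays and on no dissected array. The groups also differed in technical measures. The aorta channel was well above background for 47.22% to 50.55% of spots on the dissected arrays and for 52.36% to 58.39% on the non-dissected arrays. All 3 dissected arrays were scanned on the second of 2 scan days, together with non-dissected replicate 3, whereas the other 3 non-dissected arrays were scanned on the first. Beside the main fit, differences are therefore given with scan day as a term in the model, and within scan day 2, where 3 dissected arrays meet 1 non-dissected array. No slide held both groups, so slide and group cannot be told apart within these 7 arrays. The log2 ratio also followed the share of G and C bases in the probe more closely on the dissected arrays (Spearman correlation across probes 0.11 to 0.23) than on the non-dissected arrays (-0.01 to 0.10).

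Dissected and non-dissected aortas differed at 1503 of 18687 genes tested, 8.04% of them, by limma's moderated test at an adjusted p under 0.05 (called genes from here on). Of these, 575 genes were higher in dissected aortas (3.08% of genes tested) and 928 were lower (4.97%). Counts of called list members are read against these shares. The difference was at least 2-fold for 148 of the higher and 302 of the lower genes. The 7 values of 1450 called genes did not overlap between the groups, against 26.9% of all genes tested. The 15 largest named rises and 15 largest falls were drawn from called genes with a current symbol and no overlap between groups. Separation of the groups in each of these genes was therefore a condition of the choice and not a result. Among the 15 largest named rises were Pf4 and Gp9 of platelets, Mmp9 and Il1r2 of neutrophils, Hmox1 of haem breakdown and Stmn3 of neurons. Among the 15 largest named falls were Fbn1, Lox, Ccn2 and Ccn3 of the matrix and the protease inhibitor gene Timp3. When each array's ratios were centred on their median in place of loess, the median of all genes moved to -0.29 (log2) and the called genes became 55 higher and 1798 lower. Scale normalization between arrays left 57 higher and 37 lower. The count fell to 785, 703 and 1001 without dissected replicate 1, 2 or 3, to 920 and 838 without non-dissected replicate 1 or 2, to 873 with scan day as a term and to 8 within scan day 2.

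Of 168 named genes 79 were called. All 79 kept their sign with scan day as a term, where 40 kept their call. All 79 also kept their sign within scan day 2, where 3 arrays meet 1. For genes whose groups do not overlap that sign was fixed in advance, since the same arrays are used in the main comparison. Leaving out 1 array at a time, 24 of the 79 kept their call in all 7 fits. Calls were lost most often without dissected replicate 1, for 44 of the 79, and least often without non-dissected replicate 4, for 7. Of probes for the same gene, 36 called named genes had more than 1, and in 32 of these every probe had the same sign. The exceptions were Ctsb, Tgfbr2, Itgav and Itgb1. The same sign did not mean a like size, and the differences given are those of the brightest probe. The weakest probe stood at 0.30 for Il1r2, 0.14 for Ddit4l, 0.54 for Cd300lf, 0.66 for Lrrc15 and 0.21 for Pcsk1n. It stood at 0.076 for Col24a1, 0.13 for Ctsd, 0.18 for Tnfrsf1b and -0.40 for Angptl1. In other genes it was closer to the value given, as in Fbn1 (-2.44) and C1s1 (-1.16). With scan day as a term the calls lost included those of Arg1, Stmn3, Gp9, Cd300lf, Pcsk1n, Mirt1, Slc40a1, Itgbl1, Ccn3, Ccn2, Chrdl1, Lyve1, Aspn, Frzb, Col5a2, Plod2, Lum, Ctsd, Ctsb, F3, Treml1, Csf3r, Hdc, Cfp, Pdgfc, Bmp4, Tgfbr2, Chga, Pmp22, Nusap1, Herpud1, Itgb1, Vcl, Pxn and Ano1. Under median centring 10 of the 32 higher and 45 of the 47 lower named genes kept their calls, and those lost included Arg1, Stmn3, Gp9, Cd300lf, Pcsk1n, Mirt1, Slc40a1, Mmp9, Lyve1, Tgfb1, Ctsd, Ctsb, Treml1, Csf3r, Hdc, Tnfrsf1b, Cfp, Apln, Nrp2, Bnip3l, Chga and Pxn. Scale normalization between arrays kept the sign of all 79 but the call of only 6, Angptl1, Ddit4l, Il1r2, Mmp9, Slc7a11 and Treml4, and the other 73 calls did not hold under it. Of the 79 calls, 69 held on the authors' deposited series table, and those lost were Arg1, Lrrc15, Il1r2, Frzb, Angptl1, Col24a1, Plod2, Treml1, Csf3r and Fpr1. The same 10 were lost on the scanner's ratio.

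Platelet transcripts were among the largest rises. Platelets are shed from megakaryocytes with a small store of messenger RNA, and their genes are driven by GATA and ETS family factors. The promoters of the 3 called platelet genes are shown, from 250 bases before to 50 bases after the start of transcription. These genes were chosen by their calls, and whether they are regulated together was not tested. The sequences are those of RefSeq on GRCm38.p6, read 5′ to 3′ on the gene's strand. Capitals mark motifs searched on both strands. The GATA motif was taken as AGATAA, or as the same letters with another first base, TGATAA. The ETS motif was taken as GGAAGT. No 2 marked matches overlap.
Pf4, chr5:90772185-90772484, plus strand: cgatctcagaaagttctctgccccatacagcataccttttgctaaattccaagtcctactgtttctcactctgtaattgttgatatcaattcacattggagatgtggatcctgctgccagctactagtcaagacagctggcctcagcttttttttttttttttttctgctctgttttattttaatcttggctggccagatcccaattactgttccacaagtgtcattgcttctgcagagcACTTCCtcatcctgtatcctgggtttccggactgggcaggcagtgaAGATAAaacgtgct
Gp9, chr6:87777820-87778119, plus strand: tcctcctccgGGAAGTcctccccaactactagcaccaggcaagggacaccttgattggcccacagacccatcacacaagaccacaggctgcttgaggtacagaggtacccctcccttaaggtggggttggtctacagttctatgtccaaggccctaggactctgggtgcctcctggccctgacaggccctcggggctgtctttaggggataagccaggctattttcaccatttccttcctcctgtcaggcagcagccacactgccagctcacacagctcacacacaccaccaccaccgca
Treml1, chr17:48359666-48359965, plus strand: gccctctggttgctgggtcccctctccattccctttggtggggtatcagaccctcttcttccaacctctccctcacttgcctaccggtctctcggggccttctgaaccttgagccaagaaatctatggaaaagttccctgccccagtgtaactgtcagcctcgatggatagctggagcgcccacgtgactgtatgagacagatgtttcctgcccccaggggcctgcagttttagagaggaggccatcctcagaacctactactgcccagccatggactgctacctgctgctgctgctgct
The Pf4 promoter held 1 GATA match, from base 287 of the window, and 1 ETS match, from base 241, the Gp9 promoter held 1 ETS match and the Treml1 promoter held neither. Over all 32851 promoters of this length, 18.6% held the GATA motif and 23.8% the ETS motif.

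Pf4 encodes platelet factor 4, a chemokine of platelet granules. Its log2 ratio was 3.05, 3.36 and 3.00 on the 3 dissected arrays and 1.56, 0.12, -0.27 and 1.23 on the 4 non-dissected arrays, with -1.16 ± 0.605 (SD, n = 6) under saline. Every dissected aorta was above every non-dissected aorta, and the difference was 2.48 (standard error 0.54, adjusted p = 0.00465), a 5.56-fold higher level. Gp9, a subunit of the von Willebrand factor receptor, was at 4.02, 2.34 and 2.96 on the 3 dissected arrays and 0.55, -0.63, 1.07 and 1.23 on the 4 non-dissected arrays, and differed by 2.55 (standard error 0.704, adjusted p = 0.0213). One of the 4 non-dissected arrays did not measure Gp9 well above background. Treml1, a receptor stored in platelet granules, was at 3.07, 1.57 and 2.32 on the 3 dissected arrays and 0.34, 0.13, 0.56 and 0.98 on the 4 non-dissected arrays and differed by 1.82 (standard error 0.56, adjusted p = 0.0406).

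Of 13 platelet and megakaryocyte genes tested, 3 were higher and 0 lower, where 3.08% of all genes were called higher. Their median difference was 0.35, against -0.00070 over all genes tested. Ppbp, another platelet chemokine, stood at 2.33 (adjusted p = 0.129). The integrin chains Itga2b and Itgb3 stood at 0.074 (adjusted p = 0.935) and 0.13 (adjusted p = 0.941), and Gp1ba, the partner of Gp9 in the receptor, was above background on no array of either group. The list median on each array was 1.20, 1.36 and 0.91 in dissected and 0.67, 0.13, 0.56 and 0.98 in non-dissected aortas. Pf4 kept its call in 7 of 7 fits without 1 array and with scan day as a term (adjusted p = 0.00934), and lost it after scale normalization (adjusted p = 0.475). Gp9 kept it in 4 of 7 and Treml1 in 2 of 7, with adjusted p up to 0.135 and 0.208 without dissected replicate 1, and with scan day as a term they were at 0.0652 and 0.0945.

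Of 23 haem and iron genes, 2 were higher in dissected aortas, Hmox1 and Slc40a1, and 1 was lower. Of all genes tested 3.08% were called higher and 4.97% lower. The median difference was 0.20, which became -0.24 under median centring, where the median of all genes was -0.29. Hmox1, the inducible haem oxygenase that splits haem into biliverdin, iron and carbon monoxide, was at 2.20, 2.59 and 2.07 on the 3 dissected arrays and 0.50, -0.95, -0.75 and 0.46 on the 4 non-dissected arrays. All 3 dissected values lay above all 4 others and above the saline mean of -2.01, and the difference was 2.47 (standard error 0.647, adjusted p = 0.0158). Slc40a1, the iron exporter ferroportin, was at 2.40, 1.57 and 2.25 on the 3 dissected arrays and 0.54, -1.04, -0.39 and 0.96 on the 4 non-dissected arrays and differed by 2.06 (standard error 0.614, adjusted p = 0.0339). Ireb2, which encodes the iron regulatory protein that senses a low iron store, was lower, with a difference of -0.74 (standard error 0.156, adjusted p = 0.00387). The red cell genes Hba-a1, Hbb-bt and Alas2 stood at 0.45 (adjusted p = 0.604), 0.55 (adjusted p = 0.485) and 0.57 (adjusted p = 0.694), and none of 8 erythroid genes was called. Globin probes can cross-hybridise between near-identical copies. Hmox1 kept its call with scan day as a term (adjusted p = 0.0342) and lost it after scale normalization (adjusted p = 0.824), without dissected replicate 2 (adjusted p = 0.0744) and without non-dissected replicate 2. Slc40a1 kept its call in 2 of 7 fits without 1 array, with adjusted p up to 0.131 without non-dissected replicate 2, and was at 0.065 with scan day as a term.

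Neutrophil genes gave the largest number of rises of any cell type list. Of 19 tested, 6 were higher and none lower, against 3.08% of all genes called higher, with a median difference of 0.80 that ran from 0.53 to 1.08 over the fits without 1 array and was 0.74 within scan day 2. The list median on each array was 1.80, 0.89 and 1.14 in dissected aortas and 0.25, 0.25, 0.46 and 0.52 in non-dissected aortas, without overlap. Mmp9, the gelatinase that neutrophils store in granules and macrophages secrete, was at 1.10, 0.89 and 0.34 on the 3 dissected arrays and -0.64, -1.87, -1.95 and -0.62 on the 4 non-dissected arrays, against -1.40 ± 0.407 (SD, n = 6) under saline. It differed by 2.05 (standard error 0.408, adjusted p = 0.00236), and 3 of the 4 non-dissected arrays measured it well above background. Il1r2, the decoy receptor that binds interleukin 1 without signalling, was at 4.36, 2.82 and 4.76 on the 3 dissected arrays and 1.67, 1.80, 1.68 and 2.21 on the 4 non-dissected arrays. The lowest dissected value was above the highest non-dissected value, and the difference was 2.14 (standard error 0.466, adjusted p = 0.00464). A second Il1r2 probe stood at 0.30. Csf3r, the receptor for granulocyte colony-stimulating factor, and Fpr1, a receptor for bacterial and mitochondrial formyl peptides, differed by 1.95 (standard error 0.495, adjusted p = 0.013) and 1.18 (standard error 0.273, adjusted p = 0.00712).

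Other neutrophil markers were not called. S100a8, a subunit of calprotectin, was at 4.00, 2.35 and 3.21 on the 3 dissected arrays and 1.22, 0.034, 0.33 and 1.83 on the 4 non-dissected arrays, without overlap, and stood at 2.34 (adjusted p = 0.0793), and its partner S100a9 stood at 2.01 (adjusted p = 0.203). The granule genes Mpo, Camp and Ltf stood at 0.26 (adjusted p = 0.695), 0.026 (adjusted p = 0.968) and -0.14 (adjusted p = 0.869), and Ngp and Prtn3 were above background on no array of either group. Mmp9 and Il1r2 kept their calls in all 7 fits without 1 array, and of these fits Csf3r and Fpr1 lost theirs in the 1 without dissected replicate 1 (adjusted p = 0.104 and 0.0557). With scan day as a term Mmp9, Il1r2 and Fpr1 remained under the threshold and Csf3r was at 0.0531. Under median centring Mmp9 was at an adjusted p of 0.0629. On the authors' deposited series table Il1r2, Csf3r and Fpr1 lost their calls, at adjusted p of 0.212, 0.181 and 0.166, and Mmp9 kept its call.

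Other myeloid receptors and enzymes were higher, while no general macrophage marker was called. Arg1, the arginase of wound macrophages, had the largest of the 15 named rises, with log2 ratios of 4.53, 3.39 and 5.18 on the 3 dissected arrays and 1.44, 0.36, 0.33 and 2.02 on the 4 non-dissected arrays, without overlap. The difference was 3.33 (standard error 1.05, adjusted p = 0.045), but it kept its call in 1 of 7 fits without 1 array, with adjusted p up to 0.161 without dissected replicate 3. Treml4, a receptor of myeloid cells that binds dying cells, was at 4.06, 3.53 and 4.29 on the 3 dissected arrays and 1.52, 0.84, 1.39 and 1.54 on the 4 non-dissected arrays and differed by 2.64 (standard error 0.583, adjusted p = 0.00526), a call kept in all 7 such fits. Cd300lf, an inhibitory receptor of myeloid cells, was at 3.53, 3.05 and 3.57 on the 3 dissected arrays and 1.38, 0.50, 0.55 and 1.05 on the 4 non-dissected arrays and differed by 2.51 (standard error 0.659, adjusted p = 0.016). It lost its call without dissected replicate 1 (adjusted p = 0.0621) or 3. With scan day as a term Treml4 was at an adjusted p of 0.0194, Cd300lf at 0.0627 and Arg1 at 0.105.

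Of 28 monocyte and macrophage genes none was called in either direction, 22 differences were positive and the median was 0.39. It became -0.037 under median centring, where the median of all genes was -0.29. Cd68, a lysosomal protein of macrophages, was at 1.31, -0.045 and 0.48 on the 3 dissected arrays and 0.21, 0.083, -0.90 and 0.077 on the 4 non-dissected arrays and stood at 0.71 (adjusted p = 0.283), with overlap. Adgre1, the gene of a classic surface antigen of mouse macrophages, stood at 0.14 (adjusted p = 0.86), and Ccr2, the receptor that recruits monocytes, at -0.32 (adjusted p = 0.826). Trem2, a lipid receptor of macrophages, stood at 1.54 (adjusted p = 0.0539), Chil3 at 1.97 (adjusted p = 0.103), Spp1, which encodes osteopontin, at 0.95 (adjusted p = 0.63), and the cytokine gene Il1b at 1.58 (adjusted p = 0.0662). Lyve1, a hyaluronan receptor of resident macrophages and lymphatic vessels, was lower, with 1.99, 0.90 and 1.89 on the 3 dissected arrays and 4.73, 4.04, 4.62 and 3.03 on the 4 non-dissected arrays. The 2 groups did not overlap and the difference was -2.51 (standard error 0.801, adjusted p = 0.0478), kept in 1 of 7 fits without 1 array (adjusted p up to 0.19 without dissected replicate 2) and at 0.124 with scan day as a term.

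Cytokine receptors and leukocyte enzymes changed at single genes. Of 25 interleukin and TNF family genes 2 were higher, Il1r2 and the TNF receptor gene Tnfrsf1b at 0.96 (standard error 0.267, adjusted p = 0.0219), and 1 was lower. The shares over all genes tested were 3.08% higher and 4.97% lower. Hdc, which makes histamine, differed by 1.56 (standard error 0.449, adjusted p = 0.0276). None of 22 chemokine genes, 15 adhesion genes, 18 T and natural killer cell genes, 14 B and plasma cell genes, 16 dendritic cell and MHC class II genes or 22 interferon response genes was called. Ccl2 stood at -0.30 (adjusted p = 0.787) and Vcam1 at -1.06 (adjusted p = 0.141). Tnfrsf1b and Hdc kept their calls in 4 and 3 of 7 fits without 1 array, with adjusted p up to 0.134 and 0.134, each without dissected replicate 1.

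Of the remaining large rises, Lrrc15 encodes a membrane protein of activated fibroblasts and bone. It was at 5.10, 4.82 and 4.42 on the 3 dissected arrays and 1.72, 3.69, 1.70 and 2.99 on the 4 non-dissected arrays, against 0.19 ± 0.257 (SD, n = 6) under saline, and differed by 2.26 (standard error 0.531, adjusted p = 0.00794). Ddit4l, an inhibitor of the growth kinase mTOR, was at 4.62, 3.93 and 2.79 on the 3 dissected arrays and 1.84, 2.41, 1.08 and 1.58 on the 4 non-dissected arrays and differed by 2.05 (standard error 0.439, adjusted p = 0.00405). Both kept their calls in all 7 fits without 1 array and with scan day as a term. Their weakest probes stood at 0.66 for Lrrc15 and 0.14 for Ddit4l. Lrrc15 lost its call on the authors' deposited series table (adjusted p = 0.0879) and after scale normalization (adjusted p = 0.0707). Mirt1, a long non-coding RNA, was at 2.38, 1.27 and 2.64 on the 3 dissected arrays and -0.43, -0.78, 0.85 and 0.32 on the 4 non-dissected arrays and differed by 2.11 (standard error 0.605, adjusted p = 0.0273), kept in 3 of 7 fits, with adjusted p up to 0.122 without dissected replicate 3.

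A further set of large rises was of genes of neurons and chromaffin cells. Stmn3, a regulator of neuronal microtubules, was at 4.45, 5.83 and 4.08 on the 3 dissected arrays and 1.76, 0.36, 0.66 and 3.90 on the 4 non-dissected arrays and differed by 3.12 (standard error 0.854, adjusted p = 0.0207). Non-dissected replicate 4 lay close to the dissected arrays and the other 3 non-dissected arrays lay far below. Pcsk1n, an inhibitor of prohormone convertase, differed by 2.50 (standard error 0.762, adjusted p = 0.0382). Chga, the chromogranin of secretory granules, was at 4.28, 5.32 and 2.91 on the 3 dissected arrays and 0.61, 0.29, 0.22 and 3.23 on the 4 non-dissected arrays and differed by 3.08 (standard error 0.929, adjusted p = 0.0357). The groups overlapped for Chga, since non-dissected replicate 4 lay above the lowest dissected array, and 2 of the 4 non-dissected arrays measured it well above background. Chgb, its relative, was at 4.97, 7.21 and 4.62 on the 3 dissected arrays and 2.23, 0.17, 0.59 and 5.27 on the 4 non-dissected arrays and stood at 3.54 (adjusted p = 0.0752).

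These rises moved with the whole list of chromaffin and sympathetic markers. All 17 differences were positive, 1 was called, against 3.08% of all genes called higher, and the median was 2.20. The list median on each array was 2.32, 4.68 and 2.23 in dissected and 0.55, 0.053, 0.12 and 2.83 in non-dissected aortas, and it ran from 0.42 to 4.59 over the 6 saline aortas. Of the defining markers, Th and Dbh, enzymes of catecholamine synthesis, stood at 2.20 (adjusted p = 0.141) and 1.75 (adjusted p = 0.102), and Pnmt, which makes adrenaline, was above background on none of the 3 dissected arrays and 1 of the 4 others. The part of attached nerve or ganglion in Stmn3, Pcsk1n and Chga was not tested. These 3 genes kept their calls in 3, 1 and 2 of 7 fits without 1 array, with adjusted p up to 0.128, 0.154 and 0.183, each without dissected replicate 2, and none kept it with scan day as a term or under median centring.

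**Figure D1:**
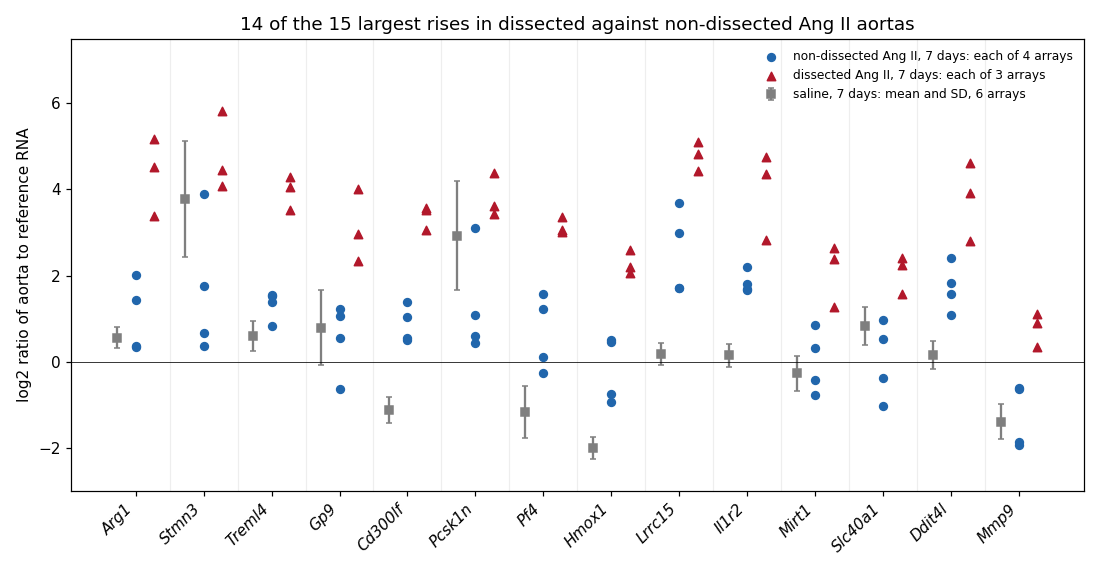
Log2 ratio of aorta to reference RNA for 14 of the 15 largest named rises, ordered by size. These were taken among called genes with a current symbol and no overlap between groups. Triangles are the 3 dissected arrays, circles the 4 non-dissected arrays, and squares with bars the mean and SD of 6 saline arrays at 7 days. The triangles of each gene lie above its circles, which was a condition for being drawn. For Stmn3 1 circle, non-dissected replicate 4, lies near the triangles at 3.90.

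Matrix genes made up the largest group of falls. Of 23 matricellular proteins and proteoglycans 7 were lower and none higher, against 4.97% of all genes called lower, with a median difference of -1.64. The list median on each array was 1.37, 0.72 and 0.79 in dissected and 2.69, 3.26, 2.11 and 2.19 in non-dissected aortas, and it had the same sign in 27 of 27 settings. Lum, the keratan sulfate proteoglycan lumican that spaces collagen fibrils, was at 5.17, 4.73 and 3.93 on the 3 dissected arrays and 7.44, 7.65, 6.69 and 6.44 on the 4 non-dissected arrays and differed by -2.45 (standard error 0.701, adjusted p = 0.0269). Aspn, the related proteoglycan asporin, was at 1.37, 0.72 and 0.84 on the 3 dissected arrays and 2.71, 5.11, 3.13 and 2.96 on the 4 non-dissected arrays, of which non-dissected replicate 2 was the highest, and differed by -2.50 (standard error 0.697, adjusted p = 0.023). The other lower members were Ccn2, Ccn3, Bgn, Prelp and Cilp, the last 3 named after their values were seen. Lum and Aspn kept their calls in 3 and 4 of 7 fits without 1 array, with adjusted p up to 0.124 without dissected replicate 3 and 0.11 without non-dissected replicate 2. Postn, Thbs1 and Tnc, matricellular proteins of healing tissue, stood at -1.66 (adjusted p = 0.0754), -1.30 (adjusted p = 0.085) and -0.95 (adjusted p = 0.218).

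Collagen genes were lower at 4 of 21 and higher at 2, against 4.97% lower and 3.08% higher over all genes tested. Their median was -1.28, with 18 negative differences. Col12a1, a chain that decorates collagen fibrils, was at 0.47, 0.40 and -0.34 on the 3 dissected arrays and 1.91, 3.12, 2.22 and 1.60 on the 4 non-dissected arrays. The groups were apart and the difference was -2.04 (standard error 0.396, adjusted p = 0.00186). Col4a1, a chain of the basement membrane network, was at 1.67, 1.79 and 1.49 on the 3 dissected arrays and 3.47, 3.23, 3.42 and 2.94 on the 4 non-dissected arrays and differed by -1.61 (standard error 0.298, adjusted p = 0.00132), and Col5a2, which limits fibril diameter, differed by -2.04 (standard error 0.544, adjusted p = 0.0178). Col24a1, a minor fibrillar chain, was higher by 1.36 (standard error 0.323, adjusted p = 0.00829). The main chains Col1a1 and Col3a1 stood at -1.13 (adjusted p = 0.418) and -1.82 (adjusted p = 0.0889). Col12a1 and Col4a1 kept their calls in all 7 fits without 1 array and with scan day as a term, and lost them after scale normalization (adjusted p = 0.0859 and 0.596). Col5a2 and Col24a1 kept theirs in 4 and 5 of 7, with adjusted p up to 0.0793 and 0.0606 without dissected replicate 2, and Col5a2 was at 0.0667 with scan day as a term.

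Of genes for elastic fibres and crosslinking, the single genes Fbn1, Lox and Plod2 were lower. Fbn1, which encodes fibrillin 1, the core of the microfibril and the gene mutated in Marfan syndrome, was at 0.85, 0.48 and 0.0038 on the 3 dissected arrays and 3.70, 3.83, 2.96 and 2.43 on the 4 non-dissected arrays. The lowest non-dissected value was 2.43 and the highest dissected value 0.85, and the difference was -2.78 (standard error 0.557, adjusted p = 0.00244). Lox, the oxidase that crosslinks collagen and elastin, was at -0.84, -1.71 and -1.36 on the 3 dissected arrays and 1.51, 1.65, 0.84 and 1.27 on the 4 non-dissected arrays and differed by -2.62 (standard error 0.513, adjusted p = 0.00204), a 6.14-fold lower level. Plod2, which hydroxylates collagen lysines for crosslinking, differed by -1.38 (standard error 0.419, adjusted p = 0.0377). Eln, the gene of elastin itself, was at 4.55, 4.29 and 3.87 on the 3 dissected arrays and 3.89, 3.78, 4.16 and 4.10 on the 4 non-dissected arrays and stood at 0.25 (adjusted p = 0.847), and at -0.33 under median centring. Under that centring the median of all genes was -0.29. Of 17 elastic fibre genes 1 was lower, with a median of -0.53, and of 22 collagen processing genes 2 were lower, with a median of -0.46. Over all genes tested 4.97% were called lower. Fbn1 and Lox kept their calls in all 7 fits without 1 array and with scan day as a term, and lost them after scale normalization (adjusted p = 0.102 and 0.755). Plod2 kept its call in 1 of 7, with adjusted p up to 0.102 without dissected replicate 3.

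Ccn3 and Ccn2 had the largest differences of the matricellular list. CCN proteins are secreted regulators that bind integrins, and Ccn2 is a classic transcript of TGF-beta and of mechanical load. Ccn3 was at 0.019, 0.046 and -0.83 on the 3 dissected arrays and 3.37, 3.26, 3.19 and 2.38 on the 4 non-dissected arrays and differed by -3.31 (standard error 0.999, adjusted p = 0.0364). Ccn2 was at 1.69, 2.53 and 1.16 on the 3 dissected arrays and 5.24, 4.38, 4.44 and 4.27 on the 4 non-dissected arrays and differed by -2.79 (standard error 0.871, adjusted p = 0.0438). Both groups were apart in each gene, but Ccn2 kept its call in none of the 7 fits without 1 array (adjusted p from 0.0562 to 0.153, the latter without dissected replicate 3) and Ccn3 in 1 (up to 0.126 without dissected replicate 3). With scan day as a term they were at 0.136 and 0.105. The other measured members, Ccn1, Ccn4 and Ccn5, stood at -1.02 (adjusted p = 0.156), -0.71 (adjusted p = 0.462) and -1.83 (adjusted p = 0.119). Cthrc1, a secreted protein of activated fibroblasts, stood at -0.86 (adjusted p = 0.323).

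In TGF-beta and BMP signalling the ligand Tgfb1 was higher while a receptor, a transducer and BMP ligands were lower. Tgfb1 was at 1.35, 1.15 and 0.95 on the 3 dissected arrays and 0.62, 0.46, 0.13 and 0.37 on the 4 non-dissected arrays and differed by 0.75 (standard error 0.175, adjusted p = 0.00721). Smad4, the shared transducer of the pathway, was at -0.81, -1.18 and -0.70 on the 3 dissected arrays and -0.019, 0.0084, -0.10 and -0.24 on the 4 non-dissected arrays and differed by -0.81 (standard error 0.166, adjusted p = 0.0029). Tgfbr2, the ligand-binding receptor chain, differed by -0.76 (standard error 0.244), with an adjusted p of 0.04997 just under the threshold. A second Tgfbr2 probe had a difference of 0.28. Bmp6 and Bmp4 differed by -1.78 (standard error 0.502, adjusted p = 0.0246) and -1.40 (standard error 0.438, adjusted p = 0.0436). Of 29 pathway genes 1 was higher and 4 lower, with a median of -0.61, against 3.08% higher and 4.97% lower over all genes tested. Smad4 kept its call in all 7 fits without 1 array and lost it after scale normalization (adjusted p = 0.633). Tgfb1 lost its call without dissected replicate 1 (adjusted p = 0.0554) and under median centring (difference 0.14 against a median of all genes of -0.29). Bmp6, Bmp4 and Tgfbr2 kept theirs in 3, 2 and 1 of 7, with adjusted p up to 0.0848, 0.143 and 0.323, without dissected replicate 2, 3 and 2.

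The large falls also held Chrdl1 and Frzb. Chrdl1, which binds BMPs, was at 1.73, 1.57 and 1.60 on the 3 dissected arrays and 4.79, 4.57, 4.10 and 3.43 on the 4 non-dissected arrays and differed by -2.59 (standard error 0.7, adjusted p = 0.0192). Frzb, which binds Wnt ligands, was at 1.96, 2.28 and 0.46 on the 3 dissected arrays and 4.29, 4.37, 3.99 and 3.52 on the 4 non-dissected arrays and differed by -2.48 (standard error 0.693, adjusted p = 0.0234). The highest of these dissected values, 2.28 for Frzb, was below the lowest non-dissected one. They kept their calls in 2 and 3 of 7 fits without 1 array, with adjusted p up to 0.0699 without dissected replicate 2 and 0.149 without dissected replicate 3, and were at 0.0681 and 0.0678 with scan day as a term.

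Integrins anchor cells to this matrix. Itgbl1, a secreted protein with integrin beta-like repeats, had the largest fall, with 1.71, 2.76 and 0.20 on the 3 dissected arrays and 5.45, 5.14, 4.92 and 4.66 on the 4 non-dissected arrays. The dissected arrays lay far apart from each other but all below the other group, 2 of the 3 measured it well above background, and the difference was -3.49 (standard error 1.06, adjusted p = 0.0375). Itgav, the alpha v chain that binds vitronectin and activates latent TGF-beta, was at -2.08, -2.19 and -1.90 on the 3 dissected arrays and -0.25, -0.33, -0.37 and -0.67 on the 4 non-dissected arrays and differed by -1.65 (standard error 0.309, adjusted p = 0.00146). Itgb1, the shared beta 1 chain, and Vcl, the focal adhesion protein vinculin, differed by -1.39 (standard error 0.396, adjusted p = 0.0261) and -1.28 (standard error 0.383, adjusted p = 0.0345), whereas Pxn, the adaptor paxillin, was higher by 0.59 (standard error 0.185, adjusted p = 0.0452). Of 19 integrin and focal adhesion genes 3 were lower and 1 higher, with a median of -0.45, against 4.97% lower and 3.08% higher over all genes tested. Probes disagreed in sign for Itgav, where 1 of 3 probes was at 0.30, and for Itgb1, where 1 of 3 was at 0.074. Itgav kept its call in all 7 fits without 1 array and lost it after scale normalization (adjusted p = 0.513). Itgbl1, Itgb1, Pxn and Vcl kept theirs in 1, 2, 2 and 0 of 7, with adjusted p up to 0.181, 0.0899, 0.175 and 0.115, without dissected replicate 3, 2, 3 and 2.

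Of 27 metalloproteinase and inhibitor genes 1 was higher, Mmp9, and 2 were lower, Timp3 and Adamts5, where 8.04% of all genes tested were called. Timp3 encodes the metalloproteinase inhibitor that is bound to the matrix and also blocks ADAM and ADAMTS enzymes. It was at -0.84, -0.28 and -1.71 on the 3 dissected arrays and 2.50, 2.37, 1.82 and 1.31 on the 4 non-dissected arrays, against 1.22 ± 0.64 (SD, n = 6) under saline. The 3 dissected values were the lowest of the 7, and the difference was -2.95 (standard error 0.492, adjusted p = 0.000489), a 7.71-fold lower level. Adamts5, an aggrecan- and versican-cutting protease, was at -1.29, -1.66 and -0.68 on the 3 dissected arrays and 0.44, 0.45, 0.18 and 0.032 on the 4 non-dissected arrays and differed by -1.49 (standard error 0.327, adjusted p = 0.00497). The median of the list was -0.064. Timp1 was at 3.41, 3.06 and 3.08 on the 3 dissected arrays and 3.62, 2.87, 2.51 and 2.85 on the 4 non-dissected arrays and stood at 0.22 (adjusted p = 0.89), Mmp2 at -0.87 (adjusted p = 0.222), Mmp14 at 0.44 (adjusted p = 0.593) and Mmp3 at -1.16 (adjusted p = 0.434), and Mmp12 was above background on no array of either group. Timp3 and Adamts5 kept their calls in all 7 fits without 1 array and with scan day as a term (adjusted p = 0.00289 and 0.0201), and lost them after scale normalization (adjusted p = 0.12 and 0.398).

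The lysosomal proteases Ctsd and Ctsb were higher by 1.30 (standard error 0.344, adjusted p = 0.0168) and 1.00 (standard error 0.26, adjusted p = 0.0153). They were 2 of 13 cathepsin and cystatin genes, whose median was 0.0039, where 3.08% of all genes tested were called higher. A second Ctsb probe was at -0.25. Both kept their calls in 4 of 7 fits without 1 array, with adjusted p up to 0.109 without dissected replicate 1 and 0.134 without dissected replicate 3, and neither did with scan day as a term (adjusted p = 0.0676 and 0.0671) or under median centring.

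Among 23 coagulation genes 4 were lower and 1 higher, against 4.97% lower and 3.08% higher over all genes tested. Thbd, the endothelial thrombin receptor thrombomodulin that turns thrombin to protein C, was at 0.53, -0.11 and 0.81 on the 3 dissected arrays and 1.96, 2.13, 2.27 and 1.94 on the 4 non-dissected arrays and differed by -1.66 (standard error 0.371, adjusted p = 0.00555). F3, tissue factor, which starts coagulation, was at -0.73, -1.05 and -0.93 on the 3 dissected arrays and 1.83, 0.63, 0.94 and 0.81 on the 4 non-dissected arrays and differed by -1.95 (standard error 0.608, adjusted p = 0.0431). F2r, the cellular thrombin receptor, differed by -1.76 (standard error 0.442, adjusted p = 0.0119), and F7, coagulation factor VII, the partner of tissue factor, was higher by 1.50 (standard error 0.385, adjusted p = 0.0142). The list held 23 genes tested, with a median of -0.12, and the fourth lower gene was Tfpi, the inhibitor of the tissue factor pathway, at -0.97 (adjusted p = 0.0138). Plau and Plaur of the plasminogen system stood at 0.52 (adjusted p = 0.26) and 0.27 (adjusted p = 0.536). F3 kept its call in none of 7 fits without 1 array (adjusted p up to 0.13 without dissected replicate 2) and was at 0.133 with scan day as a term. Thbd lost it without dissected replicate 2 (0.0527), F7 without dissected replicate 1 (0.0862), and F2r without dissected replicate 2 or 3 (0.0625).

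Of 17 complement genes 1 was higher and 2 were lower, with a median of -0.060, against 3.08% higher and 4.97% lower over all genes tested. C1s1, a protease of the classical pathway, was lower, with a difference of -1.21 (standard error 0.241, adjusted p = 0.00244), and kept its call in all 7 fits without 1 array but not after scale normalization (adjusted p = 0.772). Cfp, properdin, which stabilises the alternative pathway convertase and is stored in neutrophils, was higher by 1.31 (standard error 0.391, adjusted p = 0.0346). It kept its call in 3 of 7 such fits, with adjusted p up to 0.16 without dissected replicate 2, and was at 0.0612 with scan day as a term.

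Tnfrsf11b, the decoy receptor osteoprotegerin that binds the RANK ligand, was at 0.54, 0.014 and -0.29 on the 3 dissected arrays and 2.84, 3.39, 3.47 and 2.63 on the 4 non-dissected arrays. The saline mean was 0.091, at the level of the dissected arrays, and the difference between Ang II groups was -2.99 (standard error 0.663, adjusted p = 0.00527). It kept its call in all 7 fits without 1 array and with scan day as a term (adjusted p = 0.0187), and lost it after scale normalization (adjusted p = 0.116). Angptl1, an angiopoietin-like secreted protein, was at 1.48, 1.13 and 0.65 on the 3 dissected arrays and 3.11, 4.16, 3.89 and 2.99 on the 4 non-dissected arrays and differed by -2.45 (standard error 0.598, adjusted p = 0.0101). Pdgfd, a growth factor for mesenchymal cells, was at 1.14, 1.22 and 0.63 on the 3 dissected arrays and 3.97, 3.48, 3.60 and 3.37 on the 4 non-dissected arrays and differed by -2.60 (standard error 0.719, adjusted p = 0.0217). Angptl1 lost its call without dissected replicate 3 (adjusted p = 0.0511) and on the deposited series table of the authors (adjusted p = 0.28), and Pdgfd kept it in 3 of 7 fits, with adjusted p up to 0.0834 without dissected replicate 3. Of 24 angiogenic genes 2 were lower, Pdgfd and Pdgfc at -1.24 (standard error 0.359, adjusted p = 0.0289), and 2 were higher, against 4.97% lower and 3.08% higher over all genes tested. The higher ones were Apln, the ligand of the apelin receptor of endothelium, at 1.40 (standard error 0.383, adjusted p = 0.0207) and Nrp2, a co-receptor of lymphatic growth, at 0.92 (standard error 0.277, adjusted p = 0.0375). Vegfa stood at 0.29 (adjusted p = 0.649). Pdgfc, Apln and Nrp2 kept their calls in 3, 4 and 1 of 7 fits, with adjusted p up to 0.159, 0.103 and 0.146, without dissected replicate 2, 3 and 2.

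**Figure D2:**
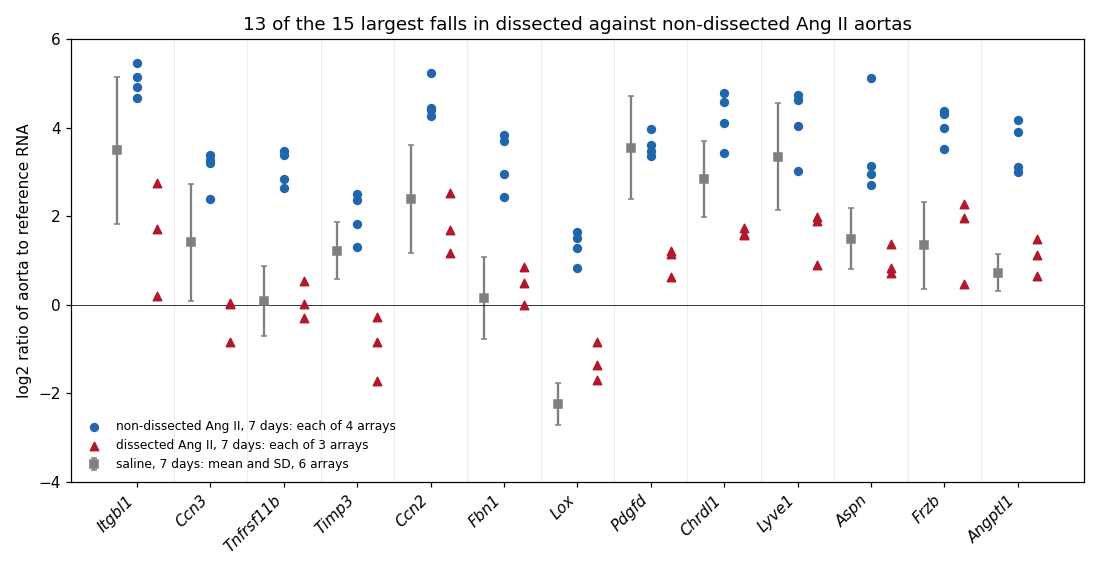
Log2 ratio of aorta to reference RNA for 13 of the 15 largest named falls, ordered by size. These were taken among called genes with a current symbol and no overlap between groups. Triangles are the 3 dissected arrays, circles the 4 non-dissected arrays, and squares with bars the mean and SD of 6 saline arrays at 7 days. Every circle of a gene lies above all its triangles, which was a condition for being drawn. The saline mean lies near the triangles for Tnfrsf11b (0.091) and near the circles for Pdgfd (3.54).

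Contractile smooth muscle genes had a negative difference at each of 22 members, and none was called. Their median difference was -0.95, between -1.05 and -0.70 over the fits without 1 array and -1.06 within scan day 2. The list median on each array was 1.70, 2.52 and 1.07 in dissected and 2.92, 2.19, 3.15 and 3.08 in non-dissected aortas, where dissected replicate 2 lay above the lowest non-dissected array. Acta2, smooth muscle actin, was at 1.82, 1.64 and 0.83 on the 3 dissected arrays and 2.98, 2.52, 2.69 and 3.18 on the 4 non-dissected arrays and stood at -1.41 (adjusted p = 0.334). Myh11, the smooth muscle myosin heavy chain, was at 5.06, 5.16 and 3.84 on the 3 dissected arrays and 5.19, 4.54, 5.43 and 4.69 on the 4 non-dissected arrays and stood at -0.27 (adjusted p = 0.797), with overlap, and at 0.68 on the authors' deposited series table. Myocd, the co-activator of contractile genes, stood at -1.55 (adjusted p = 0.284), and Mylk, the myosin light chain kinase, at -1.54 (adjusted p = 0.0862). Of 17 calcium and potassium channel genes of smooth muscle 1 was lower, where 4.97% of all genes tested were called lower. It was the chloride channel gene Ano1, with a difference of -1.06 (standard error 0.325, adjusted p = 0.0396), kept in 1 of 7 fits without 1 array (adjusted p up to 0.125 without dissected replicate 3).

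Fibroblast and adventitial genes had 17 of 19 negative differences, with 1 called higher, Lrrc15, and 2 lower, against 3.08% and 4.97% of all genes tested. Their median was -0.67. Beside Lum the lower gene was Scara5, a ferritin receptor of adventitial fibroblasts, at -0.79, -0.89 and -0.83 on the 3 dissected arrays and 1.89, 0.83, 1.06 and 0.98 on the 4 non-dissected arrays. The dissected arrays lay close together and below the other group, and the difference was -2.03 (standard error 0.485, adjusted p = 0.00888), kept in all 7 fits without 1 array and lost after scale normalization (adjusted p = 0.755). Endothelial genes stood at a median of 0.51, with none of 20 called. Under median centring their median was -0.041, where the median of all genes was -0.29. Pecam1 was at -0.40 (adjusted p = 0.488) and Kdr, the main VEGF receptor, at 1.38 (adjusted p = 0.226). Brown adipocyte markers had a median of 0.74 and of -0.40 within scan day 2, and none of 13 was called; Ucp1 stood at 0.98 (adjusted p = 0.327). None of the 22 white and common adipocyte, 7 adrenal cortex, 14 skeletal muscle, 11 hepatocyte or 9 kidney tubule genes was called.

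Single transcription and stress regulators were lower in dissected aortas, where 4.97% of all genes tested were called lower. Of the unfolded protein and integrated stress list 2 of 21 were lower (median -0.079). Of the DNA damage and p53 list 2 of 15 were lower (median -0.18), and of the immediate early list 2 of 22 (median 0.015). Klf4 and Klf2, zinc finger factors of endothelium and smooth muscle that respond to flow, were lower, with differences of -1.50 (standard error 0.319, adjusted p = 0.00387) and -1.40 (standard error 0.313, adjusted p = 0.00555). Klf4 was at -0.40, -0.059 and -0.14 on the 3 dissected arrays and 2.06, 1.37, 1.15 and 0.63 on the 4 non-dissected arrays. Hif1a, the oxygen-regulated subunit of hypoxia-inducible factor, was at -1.89, -2.33 and -1.69 on the 3 dissected arrays and -0.30, -0.28, -0.74 and -0.95 on the 4 non-dissected arrays and differed by -1.40 (standard error 0.272, adjusted p = 0.00185). Of 21 hypoxia response genes 2 were lower, Hif1a and the mitophagy receptor gene Bnip3l at -0.68 (standard error 0.192, adjusted p = 0.0243), and the list median was -0.017. Xbp1, the effector of the unfolded protein response that is spliced on demand, was at -1.95, -2.39 and -1.57 on the 3 dissected arrays and -0.66, -0.70, -0.80 and -0.99 on the 4 non-dissected arrays, without overlap, and differed by -1.18 (standard error 0.215, adjusted p = 0.00119). Herpud1, of the same response, differed by -0.75 (standard error 0.212, adjusted p = 0.0243). Ccng1, a p53 target that encodes cyclin G1, was at -1.58, -1.70 and -1.52 on the 3 dissected arrays and -0.087, -0.13, -0.32 and -0.19 on the 4 non-dissected arrays and differed by -1.42 (standard error 0.242, adjusted p = 0.000596), and the death receptor gene Fas by -1.09 (standard error 0.287, adjusted p = 0.0159). Slc7a11, the cystine importer that feeds glutathione synthesis, was well above background on all 3 dissected and none of the 4 non-dissected arrays, and was at least 1.45-fold higher (adjusted p = 0.00465). Klf4, Klf2, Hif1a, Xbp1, Ccng1 and Slc7a11 kept their calls in all 7 fits without 1 array and with scan day as a term. After scale normalization Slc7a11 kept its call, and the other 5 were at adjusted p of 0.353, 0.264, 0.801, 0.928 and 0.784. Fas lost its call without dissected replicate 2 (adjusted p = 0.0969), and Bnip3l and Herpud1 kept theirs in 3 and 2 of 7, with adjusted p up to 0.217 without dissected replicate 2 and 0.0925 without non-dissected replicate 2.

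Energy metabolism and cell cycle genes are read against the 4.97% of all genes that were called lower. Of 32 oxidative phosphorylation genes 1 was lower, Atp5j, a subunit of ATP synthase, with a difference of -0.81 (standard error 0.208, adjusted p = 0.0136), which lost its call without dissected replicate 2 (adjusted p = 0.154). None of 21 glycolysis, 20 fatty acid oxidation or 21 citric acid cycle genes was called. Of 32 cell cycle genes 1 was lower, the spindle gene Nusap1, with a difference of -0.85 (standard error 0.27, adjusted p = 0.0478), kept in 1 of 7 fits (adjusted p up to 0.178 without dissected replicate 2).

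**Figure D3:**
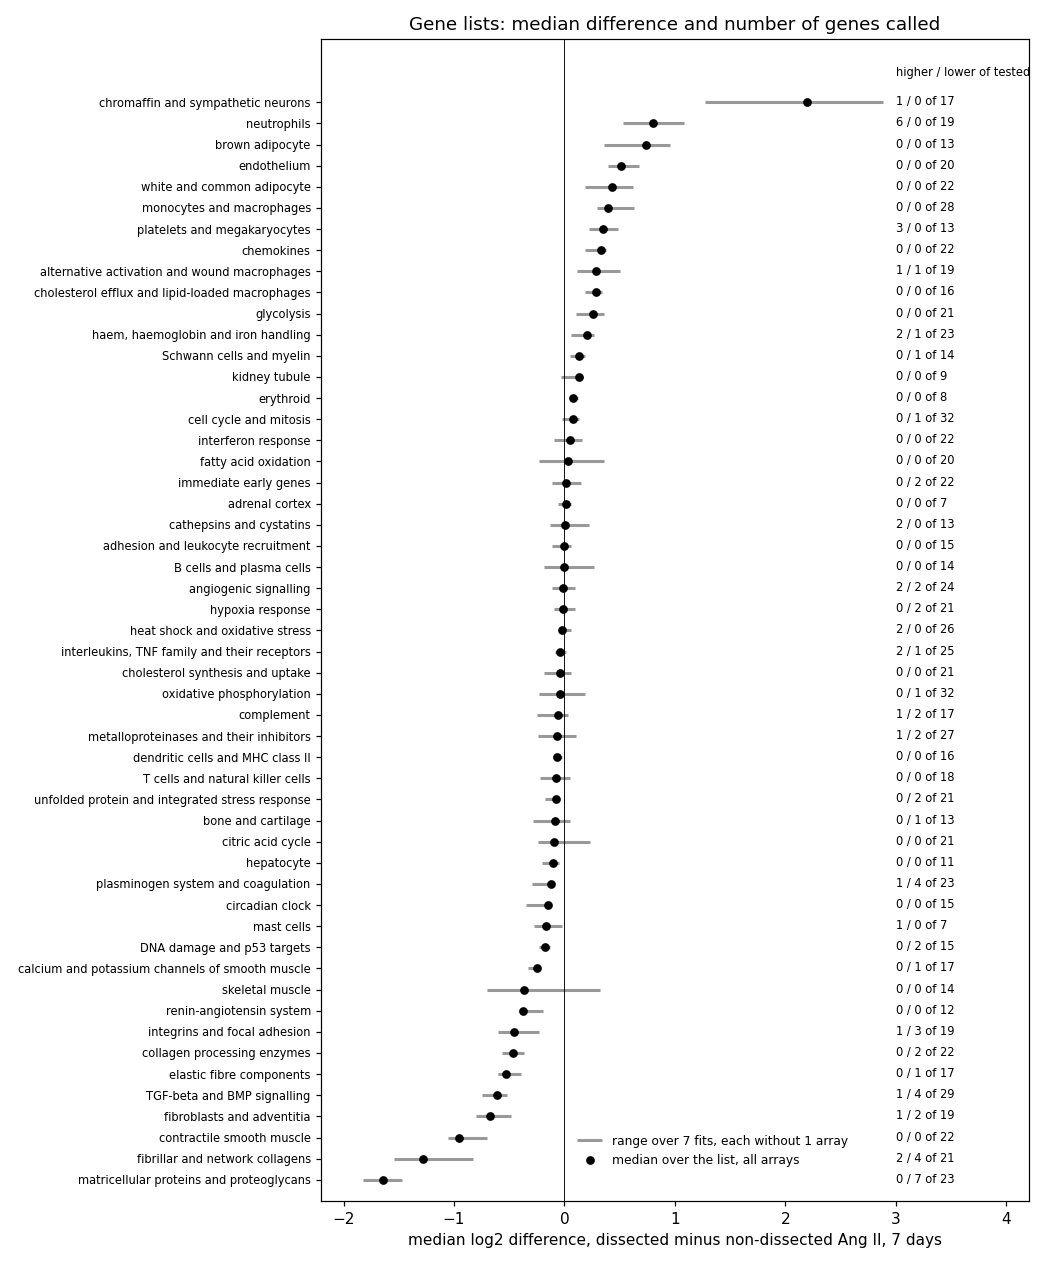
Median log2 difference, dissected minus non-dissected, of each of 52 gene lists (points), with the range of that median over 7 fits that each leave out 1 array (bars), and at the right the genes called higher and lower of those tested. Chromaffin and sympathetic markers have the highest median, 2.20, and matricellular proteins and proteoglycans the lowest, -1.64.

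Low levels of G and C in the probe went with falls. Among probes of at most 36.7% G and C, 1.7% of genes were called higher and 5.83% lower, and among those of at least 46.7%, 5.8% higher and 1.79% lower. After each array's dependence on probe composition was taken out, 1377 genes were called, Timp3 stood at -2.98 (adjusted p = 0.000511) and Mmp9 at 1.93 (adjusted p = 0.0034).

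Against saline at 7 days, 6815 genes (36.5%) were called in dissected aortas and 5067 (27.1%) in non-dissected aortas; the comparisons share the saline arrays. The values of the 15 largest rises and 15 largest falls were placed side by side. Of the rises, 11 were above saline in dissected aortas and 6 in non-dissected aortas, against 18.9% and 14.5% of all genes tested. The rises and falls were chosen on the same Ang II arrays, so these counts partly follow from the choice. Pf4 was 4.30 above saline in dissected aortas (adjusted p = 1.32e-07) and 1.82 in non-dissected aortas (adjusted p = 0.00404), and Lrrc15 4.60 and 2.34. Mmp9 was 2.18 above saline in dissected aortas (adjusted p = 3.97e-05) and stood at 0.13 in non-dissected aortas (adjusted p = 0.828). The nerve gene Stmn3 stood at 1.00 in dissected aortas (adjusted p = 0.342) and was below saline, at -2.11, in non-dissected aortas (adjusted p = 0.0297).

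Of the 15 falls, 7 were above saline in non-dissected aortas, against 14.5% of all genes tested, and none of these 7 was called against saline in dissected aortas. The falls were chosen as lower in dissected than in non-dissected aortas, so this pattern partly follows from the choice. Fbn1 was 3.08 above saline in non-dissected aortas (adjusted p = 2.36e-05) and stood at 0.29 in dissected aortas (adjusted p = 0.698). Tnfrsf11b was 2.99 above saline in non-dissected aortas (adjusted p = 0.000277) and its dissected mean, 0.089, was at the saline mean of 0.091. Lox was 3.56 above saline in the former (adjusted p = 8.3e-07) and stood at 0.94 in the latter (adjusted p = 0.123). A further 3 falls were below saline in dissected aortas, among them Timp3 at -2.17 (adjusted p = 0.000371) and Pdgfd at -2.54 (adjusted p = 0.00316). The non-dissected values of Timp3 and Pdgfd stood at 0.78 and 0.060 against saline, neither of them called. Of the 47 called named genes that were lower, 24 were below saline in dissected aortas and 3 above it, against 17.6% and 18.9% of all genes tested. These 47 were called lower on the same dissected arrays, so these counts also partly follow from the choice.

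**Figure D4:**
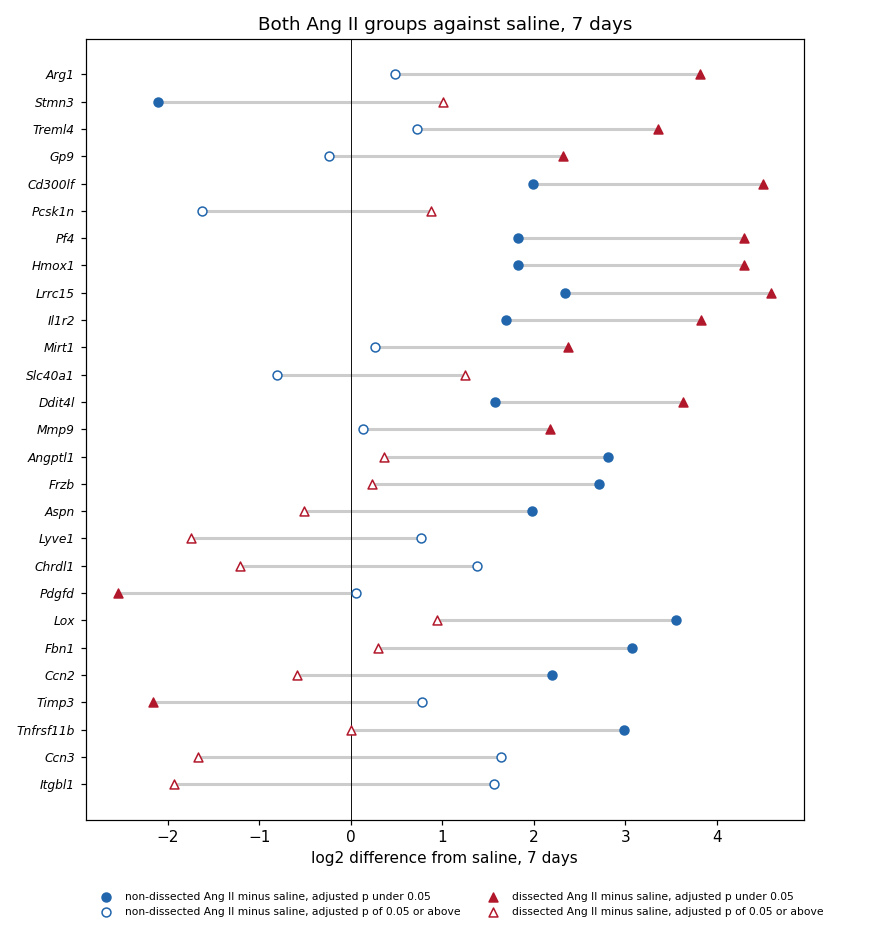
Log2 difference from saline at 7 days of 14 of the 15 largest rises (top) and 13 of the 15 largest falls (bottom), circles for non-dissected and triangles for dissected Ang II aortas, filled at an adjusted p under 0.05. The triangle of Mmp9 is filled at 2.18 and its circle open at 0.13; the circle of Fbn1 is filled at 3.08 and its triangle open at 0.29.

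Later Ang II aortas, none of them labelled as dissected, gave a further reference for the leading genes. Mmp9 was at -1.24 ± 0.286 (SD, n = 5) at 14 days and -0.78 ± 0.652 (n = 6) at 28 days, against 0.78 in dissected and -1.27 in non-dissected aortas at 7 days. Pf4 was at -0.18 ± 0.238 and 0.21 ± 1.1 at these times, below its dissected mean of 3.14. Fbn1 was at 1.74 ± 0.27 and 1.51 ± 1.07, between its dissected mean of 0.45 and its non-dissected mean of 3.23 at 7 days. Timp3 was at 0.95 ± 0.233 and 1.27 ± 1.13, above its dissected mean of -0.94. These later values were not tested against the dissected arrays.

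**Figure D5:**
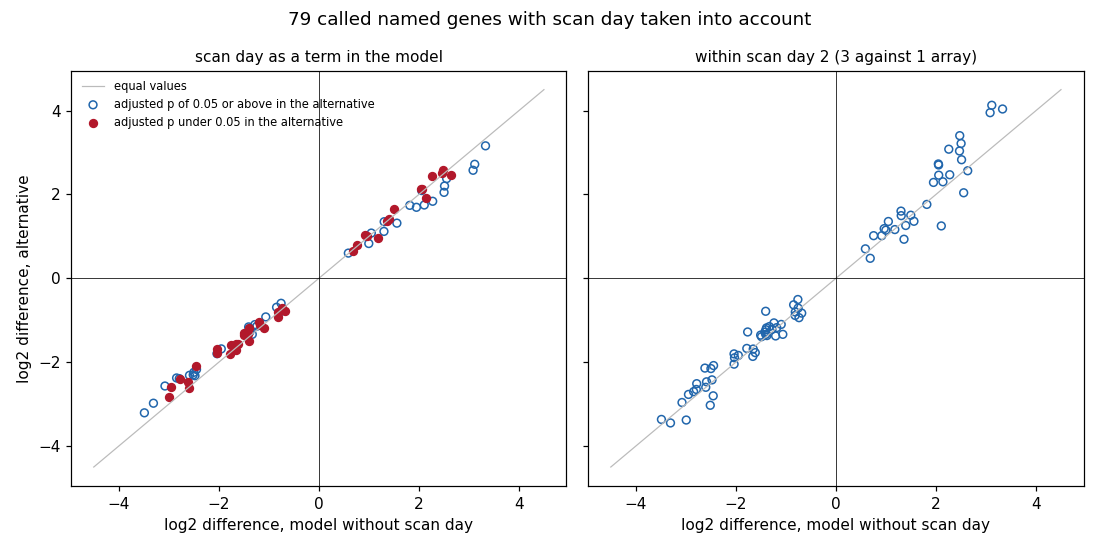
Log2 difference of the 79 called named genes in the model without scan day (x axis) against the model with scan day as a term (left) and against scan day 2 alone, 3 dissected arrays against 1 non-dissected array (right). Filled points passed an adjusted p of 0.05 in the alternative, 40 on the left, and all points lie in the same quadrant as the grey line of equal values. On the right this was fixed in advance for genes whose groups do not overlap, since the arrays are reused.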

How the data were processed

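Each array hybridised Cy5-labelled RNA of 1 suprarenal aorta, after linear amplification, against Cy3-labelled universal mouse reference RNA, with no dye swap, per the labels' protocols. The deposited scanner files hold each spot's intensity in both channels, with its local background, and a log10 ratio of Cy5 over Cy3 from Agilent Feature Extraction 9.5.3.1, per the file headers. The authors' deposited series table holds log2 ratios that track the scanner's log10 ratio on every array. Here intensities were corrected with normexp (offset 50), normalized within arrays by loess and fitted in limma 3.58.1 (R 4.3.3) with a mean for each of 7 groups over all 35 arrays, so groups share 1 estimate of the spread. Flagged spots were left out. A gene entered the test if 3 or more arrays detected it well over background in the Cy5 channel, and its brightest probe stood for it. Symbols came from the files, updated through RefSeq. Adjusted p-values are Benjamini-Hochberg over 18687 genes, and a call is an adjusted p under 0.05. The fit was tested on simulated data.

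Named genes were the 15 largest rises and 15 largest falls among called genes with a current symbol and no overlap between groups, the 4 called members with the largest difference of each of 52 gene lists (where none was called, the 2 with the smallest p), and a set list of wall and marker genes. The members and lists were chosen with earlier results of these data known. A fold written "at least" sets the brighter group's mean against the lowest signal well above background in the dimmer group. Each array is 1 mouse, so precision rests on how many arrays a group has. Alternatives were other normalizations, filters and fits, scan day or slide in the model, and leaving out each of the 7 arrays. Some genes that the rule names are not reported here.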

Additional observations from a re-analysis of the deposited data

Results flagged for a closer look

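Of 250 groups of 4 or 6 arrays examined, 13 held 1 array whose gap to its nearest neighbour took up most of the group's range, and chance gives about 5% of groups. The ratio of gap to range is given for each, and no cause was tested. Among the 4 non-dissected aortas, replicate 2 was the highest for Col5a2 (3.00 as log2 ratio, nearest array 2.23, ratio 0.915), Pdgfc (0.69, nearest 0.077, ratio 0.945) and Acta1, the skeletal muscle actin (3.04, nearest 1.80, ratio 0.859). It was also the highest for the median of the chemokine list (0.72, nearest 0.13, ratio 0.870) and of the skeletal muscle list (2.89, nearest 0.045, ratio 0.944). Replicate 3 was the lowest for Cd68 (-0.90, nearest 0.077, ratio 0.876) and the highest for Jchain, the joining chain of antibodies (-1.10, nearest -2.25, ratio 0.832). Replicate 4 was the highest for Chga (3.23, nearest 0.61, ratio 0.872). Replicate 1 was the lowest for Scarb1, the receptor of high-density lipoprotein (0.13, nearest 0.98, ratio 0.834). Among the 6 saline aortas, replicate 1 was the highest for Lrrc15 (0.69, nearest 0.20, ratio 0.697) and replicate 3 the lowest for Il1r2 (-0.38, nearest 0.13, ratio 0.712). Saline replicate 5 was the lowest for Pdgfd (1.22, nearest 3.68, ratio 0.783) and for Lyve1 (1.00, nearest 3.18, ratio 0.692).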

How the results depend on the processing

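None of the 79 called named genes changed sign under the alternatives run. In at least 1 of them, 25 of the 89 named genes that were not called and the medians of 34 of 52 lists did so. Under median centring the median of all genes was itself -0.29, so signs there have another baseline. For genes whose groups do not overlap, the sign could not change within scan day 2 or without 1 array. Against 1503 genes called between dissected and non-dissected aortas, there were 94 after scale normalization, 2809 from the authors' series table, 2818 from the scanner's ratio, 2318 in a fit on the 7 arrays alone, 3923 with array weights, 873 (315 higher, 558 lower) with scan day as a term and 8 within scan day 2. Leaving out 1 array gave 703 to 1438. Median centring gave 1853 (55 higher, 1798 lower). Scale normalization gave 57 higher and 37 lower. Between non-dissected aortas and saline 5067 genes became 1561 under median centring, 965 after scale normalization and 200 within scan day 2, and 3198 to 5148 without 1 array. Between dissected aortas and saline 6815 genes became 2213 after scale normalization and 4993 to 6776 without 1 array. Where a count moved, the cause was not tested. With slide as a random block 1470 genes were called. Taking out the probe's base composition gave 1377 and leaving out Ang II 14 days replicate 4 gave 1496, both chosen after seeing the data. Deviations of same-numbered arrays had correlations of 0.14, -0.21 and 0.28, and those of differently numbered arrays ran from -0.31 to 0.36. So few correlations cannot show whether the numbers pair the aortas. A replicate block gave 1411 on the 7 arrays and 1932 on all 35. Of the 79 calls, 24 held whichever array was left out, 69 on the deposited series table and 6 after scale normalization, and scan day 1 held no dissected array.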

Other observations

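Some imprinted genes, picked after their values were seen, were higher in dissected than in non-dissected aortas, where 3.08% of all genes tested were called higher. Imprinted genes were not counted as a list, and these calls were not followed under the alternative fits. Peg12, a paternally expressed gene, differed by 1.05 on the log2 scale (standard error 0.142, adjusted p = 5.4e-05 in limma's test), Usp29, a ubiquitin protease gene, by 1.88 (adjusted p = 0.00185) and Mest, a hydrolase gene of growing mesoderm, by 1.83 (adjusted p = 0.0243). Against saline in dissected aortas Peg12 stood at 2.27, Usp29 at 1.81 and Mest at 2.29. Other imprinted genes stood elsewhere: H19 at -1.10 (adjusted p = 0.0598), Igf2 at -0.64 (adjusted p = 0.311) and Dlk1 at 0.31 (adjusted p = 0.379) between dissected and non-dissected aortas.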
